A study of Mus musculus with 2 samples.

Results

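The Wnt ligands and their Frizzled and Lrp receptors form 31 genes, taken by symbol from the 21887 protein-coding genes of the mouse RefSeq annotation (build GRCm38.p6, the same assembly as mm10): 19 ligands (Wnt1 to Wnt16), 10 Frizzled receptors (Fzd1 to Fzd10) and the co-receptors Lrp5 and Lrp6. ChIP-seq with an anti-GFP antibody (GFP is green fluorescent protein) was run on mouse embryo heads that had been snap-frozen at E10.5, in a study of eye functions of the core histone H3.2. The 2 libraries carry the same tissue and antibody labels and form 1 group. The labels give no strain, genotype, sex, GFP-carrying protein, control or pooling, and do not say that the libraries come from separate embryos. There is therefore no contrast and no p-value here, and each library is described on its own. Expression was not measured, so the labelled tissue could not be checked against markers.

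Wnt proteins are secreted, lipid-modified signals. They bind the cysteine-rich outer domain of a Frizzled, a receptor that spans the membrane several times, and in the beta-catenin branch they also engage Lrp5 or Lrp6, which stops the breakdown of beta-catenin and lets it act with TCF/LEF factors on target genes. In the embryonic head, Wnt signals pattern the brain, the neural crest and the face, and Wnt signalling has to be held low where the lens forms.

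Library 1 held 584724 peaks and library 2 held 348. A peak was assigned to a gene when its summit, the position of highest signal, lay in the gene body or within 1 kb of either end; this stretch is called the gene window. A fold is the enrichment of the summit over the local background as the authors' caller gave it, and a pileup is the number of overlapping extended reads at the summit, recovered from the fold and the p-value of the peak. The median peak of library 1 had a fold of 3.90 and 15 reads at its summit, and that of library 2 a fold of 4.27 and 82.5 reads. Intervals are 95% exact Poisson intervals on the number of summits and cover counting error only, since neighbouring peaks may not be independent and no replicate spread exists. After a pileup, the interval is of the same kind on its read count. It takes no account of a summit being the highest point of its peak, or of picking the best peak of a gene.

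All 31 genes had a library 1 summit in their window, where 87.4% of all protein-coding genes had one. Among other genes of the members' lengths, compared within deciles of gene length, the shares were 93.8% for the ligands and 84.7% for the Frizzleds. A summit within 1 kb of a gene end was also found in all 31 genes, against 77.1% of all protein-coding genes and 80.3% of genes of the members' lengths. Counting summits near an end with a −log10 q of at least 5, the number was 16 of 31, against 44.4% of all genes. Restricted to the top 10% of peaks by fold, 3 of 31 members had a summit near an end, against 13.5%, and 19 of 31 had one anywhere in the window, against 50%. With this background near saturation, having a peak sets the members little apart, and the number of summits per kb of window carries more information.

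Library 1 summits were denser over ligand genes than over other genes of the same length. The 19 ligands held 424 summits in 622 kb of window, a pooled density of 0.681 per kb (0.618 to 0.749). This was 1.77 times (1.60 to 1.95) the number that the density of their length deciles gives. The median ligand had 0.776 summits per kb, and the median over all protein-coding genes was 0.345. In 16 of 19 ligands the density lay above the median of their own decile, which held for 49% of the other protein-coding genes. It was at or above the 75th percentile of the decile in 11 of 19, against 25% of other genes. The 3 ligands below their decile median were Wnt2, Wnt8b and Wnt16. Wnt3 and Wnt9b, Wnt3a and Wnt9a, Wnt1 and Wnt10b, and Wnt6 and Wnt10a are neighbouring pairs, all above their decile medians. The ligand counts given here are therefore not made of independent genes. The whole interval lay above the decile median in 10 of 19 ligands, against 23.1% of other genes of all lengths, and in 0 of 10 Frizzleds. Because short windows have wide intervals, this count depends on gene length, and the median length was 22.9 kb in ligands and 4.59 kb in Frizzleds. Fzd10, at 2.60 times its decile median, was not counted, whereas Wnt3a, at 1.78 times, was.

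The 10 Frizzled genes were less uniform. They held 61 summits in 156 kb, a pooled density of 0.390 per kb (0.299 to 0.501), and 0.925 times (0.708 to 1.19) the decile value. The median Frizzled, however, had 0.732 per kb, 1.49 times its decile median, and 8 of 10 lay above that median. The pooled value and the median differ through Fzd3, a receptor of axon guidance and neural tube closure, whose 72.0 kb window held 5 summits. Without Fzd3 the pooled density was 0.665 per kb (0.502 to 0.863), so the pooled density of ligands was above that of Frizzleds with Fzd3 and near it without. The ratio to the decile value, which takes gene length into account, was then 1.40 (1.06 to 1.82), against 1.77 (1.60 to 1.95) in ligands. Leaving out Fzd3 was chosen after seeing the data, and no sparse ligand was left out in turn. Among single genes the densities of both classes overlapped, from 0.203 to 1.03 per kb in ligands and from 0.0694 to 1.20 per kb in Frizzleds.

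**Figure D1:**
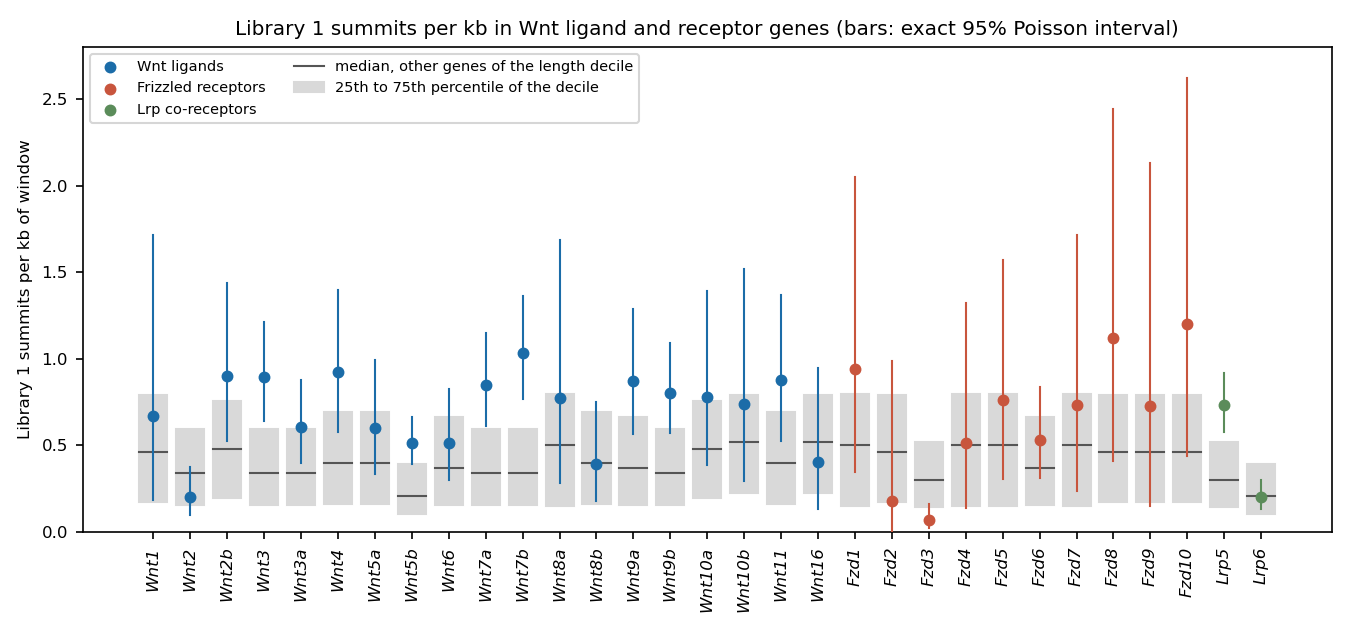
Library 1 summits per kb of gene window for each of the 31 genes (points, coloured by class), with exact 95% Poisson intervals, over the median (line) and the 25th to 75th percentile (grey box) of the other protein-coding genes of the same length decile. Wnt7b and Fzd10 stand highest in their classes, at 1.03 and 1.20 per kb, and Fzd3 lies lowest, at 0.0694 per kb.

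Among the ligands, the paralogues Wnt7a and Wnt7b, signals for brain blood vessel growth, stood high. Wnt7b had 50 summits in a 48.4 kb window, 1.03 per kb (0.767 to 1.36), above 98.1% of the other genes of its length decile. Wnt7a had 42 summits in 49.4 kb, 0.851 per kb (0.613 to 1.15), above 91.4% of its decile. For both genes the lower bound of the interval was above the decile median of 0.338 per kb.

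Wnt3, required for gastrulation and later made in facial ectoderm, had 41 summits, or 0.894 per kb (0.642 to 1.21). Wnt9b, a signal for lip and kidney development, had 40, or 0.801 per kb (0.573 to 1.09), and the neighbouring Wnt3 and Wnt9b windows shared 2 of these summits. Wnt9a, a signal of joint formation, had 25, or 0.871 per kb (0.564 to 1.29). These 3 genes exceeded 93.5%, 88.2% and 89.0% of their deciles. Wnt3a, which maintains the progenitors of the trunk and the hippocampus, was lower, with 27 summits and 0.604 per kb (0.398 to 0.879), above 75.7% of its decile.

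Wnt4, needed for kidney tubules and the female gonad, had 22 summits and 0.922 per kb (0.578 to 1.40). Wnt11, a signal for cell movements and ureteric branching, had 19 and 0.877 per kb (0.528 to 1.37). Wnt2b, which is made at the rim of the optic cup, had 17 and 0.899 per kb (0.524 to 1.44). They exceeded 90.9%, 87.8% and 85.8% of their deciles, and 4 of the 17 Wnt2b summits also lay in the window of its neighbour St7l.

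The pair Wnt5a and Wnt5b, which act largely without beta-catenin, differed little in density. Wnt5a held 15 summits, 0.602 per kb (0.337 to 0.993), and Wnt5b held 59, 0.516 per kb (0.393 to 0.666). Wnt5b is the longest ligand gene, at 112 kb, and genes of its decile have few summits per kb (median 0.206), so it exceeded 85.5% of that decile, where Wnt5a exceeded 67.5% of its own. Of the Wnt5b summits, 6 were shared with the window of Gm52875 and 1 with that of Fbxl14.

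In 5 further ligands the density was above the decile median but the interval included it. Wnt1, a signal of the boundary between midbrain and hindbrain, had 4 (0.670 per kb, 0.182 to 1.71), Wnt8a 6 (0.776, 0.285 to 1.69) and Wnt10b 7 (0.737, 0.296 to 1.52). Wnt10a, needed for teeth and skin appendages, had 11 summits (0.777 per kb, 0.388 to 1.39), and Wnt6 had 17 (0.515, 0.300 to 0.825). These 5 genes, like Wnt5a, could therefore not be told from a typical gene of their length. Wnt1, Wnt8a and Wnt10b are short and have wide intervals, whereas Wnt6 has as many summits as Wnt2b in a longer window.

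At the low end, Wnt2, a lung and heart signal, had 10 summits over 49.3 kb, or 0.203 per kb (0.0973 to 0.373), and exceeded 32.4% of its decile. Wnt16, a regulator of cortical bone, had 5, or 0.405 per kb (0.132 to 0.945), and Wnt8b, made in the dorsal forebrain, had 9, or 0.395 per kb (0.180 to 0.749). All 3 intervals included the decile median (0.338, 0.517 and 0.400 per kb), so these genes were not distinguishable from others of their length.

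Among the receptors, Fzd10, made in the dorsal neural tube, had 6 summits in 4.99 kb, 1.20 per kb (0.441 to 2.62), and Fzd8 had 6 in 5.35 kb, 1.12 per kb (0.412 to 2.44). They exceeded 95.1% and 92.8% of genes of their length, but both intervals included the decile median of 0.463 per kb. Among the related receptors Fzd1, Fzd2 and Fzd7, Fzd1 had 6 summits (0.941 per kb, 0.345 to 2.05), Fzd7 had 5 (0.734, 0.238 to 1.71) and Fzd2 had 1 (0.178, 0.00450 to 0.990). These intervals overlap, so the 3 genes could not be told apart.

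Fzd5, which is needed for the developing eye, had 7 summits (0.761 per kb, 0.306 to 1.57), and Fzd9 had 3 (0.730, 0.151 to 2.13). Fzd4, the receptor for Norrin in retinal vessels, had 4 (0.516 per kb, 0.141 to 1.32), and 3 of these 4 lay in the window of the neighbouring gene Tmem135 as well. Fzd6, which orients hair follicles, is one of the longer Frizzled genes and had 18 summits (0.529 per kb, 0.313 to 0.836). Fzd3 had 0.0694 per kb (0.0225 to 0.162), below its decile median of 0.299 and lower than all but 9.60% of the genes of its decile. The interval of Fzd3 lay wholly below the decile median, which held for 18.5% of other genes, and the intervals of the other 9 Frizzleds included it.

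The co-receptors, both over 100 kb long, went apart. Lrp5, a regulator of bone mass and retinal vessels, held 76 summits, 0.732 per kb (0.577 to 0.917), and exceeded 86.9% of its decile. Lrp6, which is broadly required in the early embryo, held 25, or 0.204 per kb (0.132 to 0.301), near its decile median of 0.206. The intervals of this pair do not overlap.

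**Figure D2:**
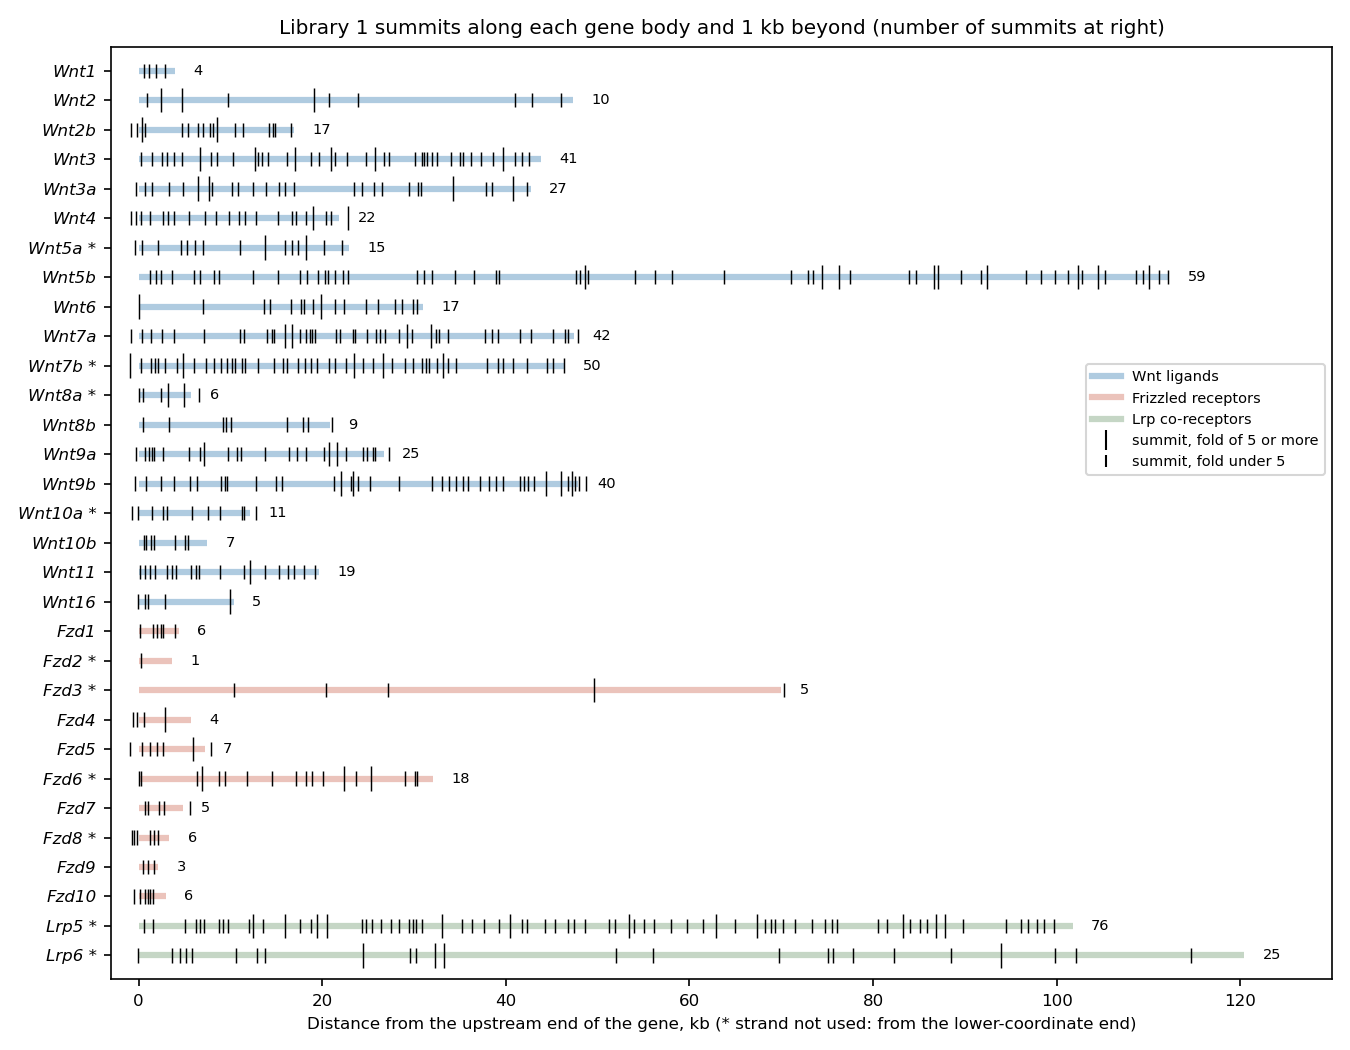
Every library 1 summit (tick) along the 31 gene bodies (coloured bars) and 1 kb beyond, in kb from the upstream gene end, or from the lower-coordinate end where marked. Tall ticks have a fold of 5 or more, and the number at right counts the summits. Ticks spread along the whole length of Wnt7b (50 summits) and Lrp5 (76), whereas Fzd3 has 5, widely spaced.

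The surroundings of ligands and Frizzleds overlapped in density but differed in their medians, a difference that was not tested. In the neighbouring 500 kb on both sides of the window, the median density was 0.548 summits per kb around ligands and 0.2395 around Frizzleds, against 0.324 for all protein-coding genes. Single genes ranged from 0.145 (Wnt2) to 0.830 (Wnt4) in ligands and from 0.124 (Fzd1) to 0.609 (Fzd9) in Frizzleds. The surroundings were denser than that overall median for 15 of 19 ligands and for 4 of 10 Frizzleds. Ligands that lie side by side share most of their surroundings, so the ligand count and median are not made of independent values. The densities were 0.582 and 0.583 per kb around Wnt3 and Wnt9b, and 0.564 and 0.575 around Wnt3a and Wnt9a. They were 0.555 and 0.548 around Wnt1 and Wnt10b, and 0.460 and 0.448 around Wnt6 and Wnt10a. The density of a window was above that of its surroundings in 18 of 19 ligands and in 8 of 10 Frizzleds, and this held for 55% of all protein-coding genes.

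The median ratio of window to surroundings was 1.42 in ligands and 2.76 in Frizzleds, where the decile medians of these genes had a median of 1.15 and 1.22. The ratio was 7.79 (2.86 to 17.0) for Fzd8 and 7.59 (2.78 to 16.5) for Fzd1. These are short genes in stretches of 0.144 and 0.124 summits per kb, and each ratio rests on 6 summits. Among ligands it was 3.61 (2.02 to 5.95) for Wnt5a and 2.94 (1.71 to 4.71) for Wnt2b. The interval lay above 1 for 6 ligands, 4 Frizzleds and Lrp5 (11 of 31), against 14.3% of all protein-coding genes. It lay below 1 for Fzd3 (0.174, 0.0564 to 0.405) and Lrp6 (0.615, 0.398 to 0.908), against 7.51% of all protein-coding genes. Both shares cover genes of all lengths, and these counts depend on gene length because long windows have narrower intervals. In the length deciles of Fzd3 and Lrp6, the median ratio was 1.04 and 0.945.

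The ligand ratio was smaller against the surroundings than against the length decile. Where ligands lie side by side, these surroundings include the window of the neighbouring ligand. When the expected number was taken from the surrounding 500 kb in place of the length decile, the pooled ratio of the ligands was 1.45 (1.31 to 1.59), and with the nearest 100 kb it was 1.31 (1.18 to 1.44). For the Frizzleds the same ratios were 1.20 (0.921 to 1.55) and 1.27 (0.970 to 1.63).

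**Figure D3:**
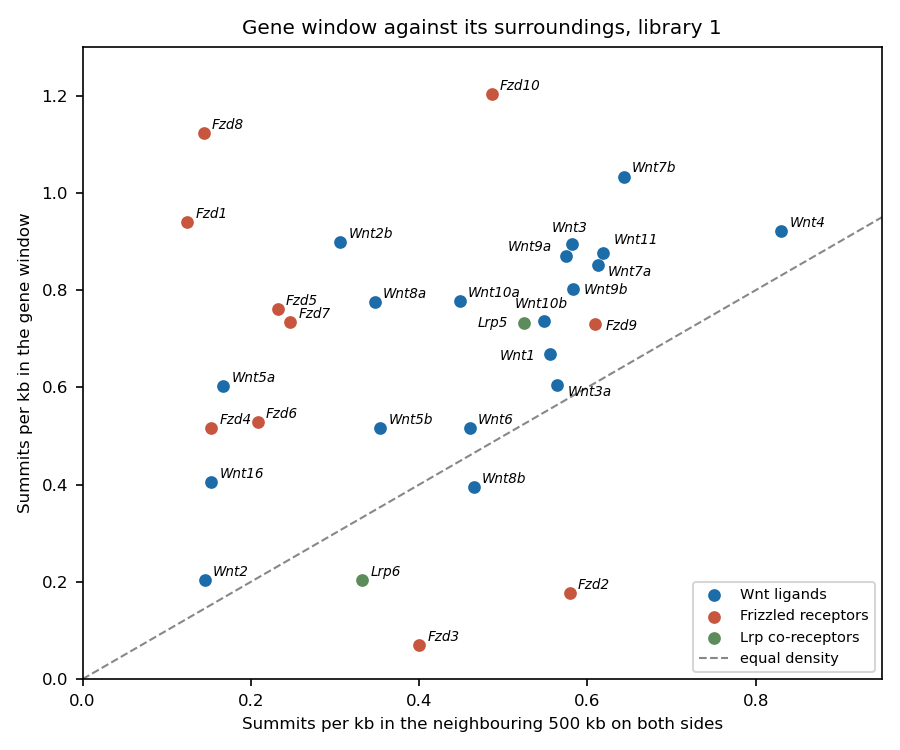
Library 1 summits per kb in each gene window (vertical axis) against the neighbouring 500 kb on both sides (horizontal axis), coloured by class, with a dashed line of equal density. Fzd1 and Fzd8 lie far above the line in sparse surroundings (0.124 and 0.144 per kb), and Fzd2, Fzd3, Lrp6 and Wnt8b lie below it.

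Some ligand genes lie side by side in the genome, and the gaps between them also held summits. Wnt3a and Wnt9a, transcribed away from each other on chromosome 11, are 16.1 kb apart, and 11 summits lay between them (0.683 per kb, highest fold 4.13). Wnt6 and Wnt10a on chromosome 1 are 6.70 kb apart with 4 summits between them (0.597 per kb). Wnt10b and Wnt1 on chromosome 15 diverge across 11.7 kb that held 3 summits (0.258 per kb, highest fold 5.13). Gap densities rest on few summits and have no interval here, so they were not ranked against the genes. Each gap also includes the 1 kb beyond the gene ends that counts in the gene windows. Wnt9b and Wnt3 overlap by 1098 bp in the annotation. None of these gaps holds another protein-coding gene.

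Peaks over the ligands were more numerous than over genes of their length, but not higher than peaks in all protein-coding windows. Peak heights were not compared within length deciles. The median fold was 3.77 over ligand summits and 3.66 over Frizzled summits, against 3.89 over the summits in all protein-coding windows. Median pileups were 14, 13 and 15 reads, and a −log10 q of at least 5 was reached by 37.5%, 27.9% and 40.4% of the summits. Ligand peaks had a median width of 256 bp and Frizzled peaks of 198 bp, where the median in all protein-coding windows was 207 bp. In 18 of 19 ligands and 7 of 10 Frizzleds at least 1 summit reached a −log10 q of 5, against 75.4% of all protein-coding genes. Wnt1, Fzd2, Fzd7 and Fzd10 had none at that level. A −log10 q of at least 10 was reached in 6 ligands, Fzd3 and Lrp5 (8 of 31), against 20.8% of all protein-coding genes.

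The highest folds among the ligands were in Wnt9b and Wnt6. The Wnt9b peak at chr11:103729111-103729628 (mm10) reached a fold of 7.81 on 28 reads (18.6 to 40.5) and lay in the gene body, 20599 bp downstream of the RefSeq start site. The Wnt6 peak at chr1:74754170-74754510 had a fold of 7.64 and the same pileup. It sat 0.063 kb inside the upstream annotated end of this plus-strand gene, 17487 bp upstream of the start site in the promoter table. Exon and intron positions were not used here.

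Folds of 6.46, each with a pileup of 23 reads (14.6 to 34.5), belonged to Wnt3a at chr11:59256215-59256580, Wnt7a at chr6:91394277-91395024, Wnt5b at chr6:119496134-119496307 and Fzd3 at chr14:65241951-65242126. Lrp5 led the receptors with a fold of 6.73 and 24 reads (15.4 to 35.7) at chr19:3651995-3652375. Fzd5 had 6.19 and 22 reads (13.8 to 33.3) at chr1:64731804-64731991. Equal folds recur because summits are whole numbers of reads and many were called against the same genome-wide background of 2.71 extended reads. This background applied to 60.2% of the member summits, against 66.2% of all library 1 peaks. At the other end, the single peak of Fzd2 had a fold of 2.90 and 10 reads (4.80 to 18.4). These intervals overlap widely, so the order of the best peaks is uncertain.

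**Figure D4:**
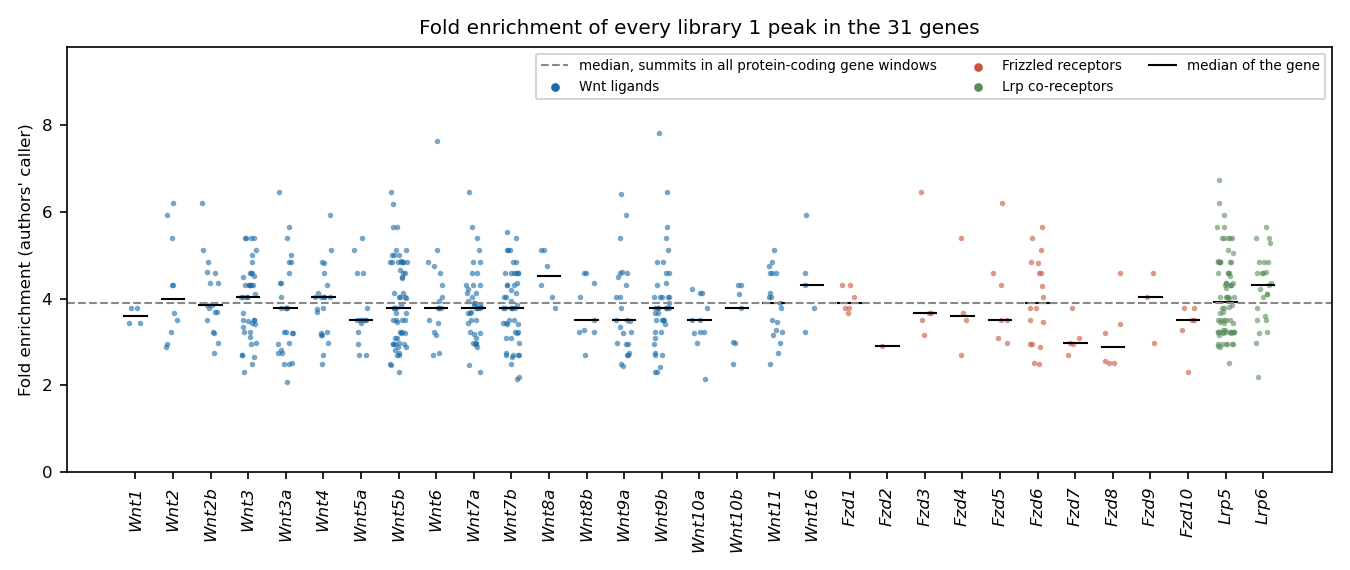
Fold enrichment of every library 1 peak in the 31 genes (points, spread sideways for legibility), with the median of each gene (black line) and the median of 3.89 over all protein-coding windows (dashed). Gene medians lie between 2.89 and 4.52, and the highest point is the Wnt9b peak at 7.81.

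Start sites with strand were given by the RefSeq promoter table for 15 ligands and 6 Frizzleds. For Wnt2, Wnt6 and Wnt9b the outermost listed start lies well inside the annotated gene, whereas the 6 Frizzled starts lie at gene ends. The 5 kb upstream of Wnt3 lie within the Wnt9b gene. The upstream ranges of the ligands therefore include gene body, and the classes are compared there over unlike stretches. Around the outermost listed start of each gene, summits were densest in the first 1 kb of the transcribed side. The density there was 1.20 per kb (0.711 to 1.90) in ligands, 1.50 (0.686 to 2.85) in Frizzleds and 0.647 in all 17492 protein-coding genes of the table. From 5 to 1 kb upstream the density was 0.667 per kb (0.476 to 0.908) in ligands and 0.0833 (0.0101 to 0.301) in Frizzleds, intervals that do not overlap, against 0.296 in all genes. In the 1 kb just upstream it was 0.600 (0.274 to 1.14) and 0.667 (0.182 to 1.71), against 0.365. From 1 to 5 kb downstream it was 0.733 (0.533 to 0.984) and 0.667 (0.381 to 1.08), against 0.349. That range runs past the gene end in Fzd1, Fzd7, Fzd9, Fzd10 and Wnt1, so the classes are compared over unlike stretches there too. The ligand and Frizzled intervals lay above the all-gene value in both downstream ranges. From 5 to 1 kb upstream the ligand interval lay above it and the Frizzled interval, from 2 summits over 6 genes, included it, and in the 1 kb just upstream both intervals included it.

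**Figure D5:**
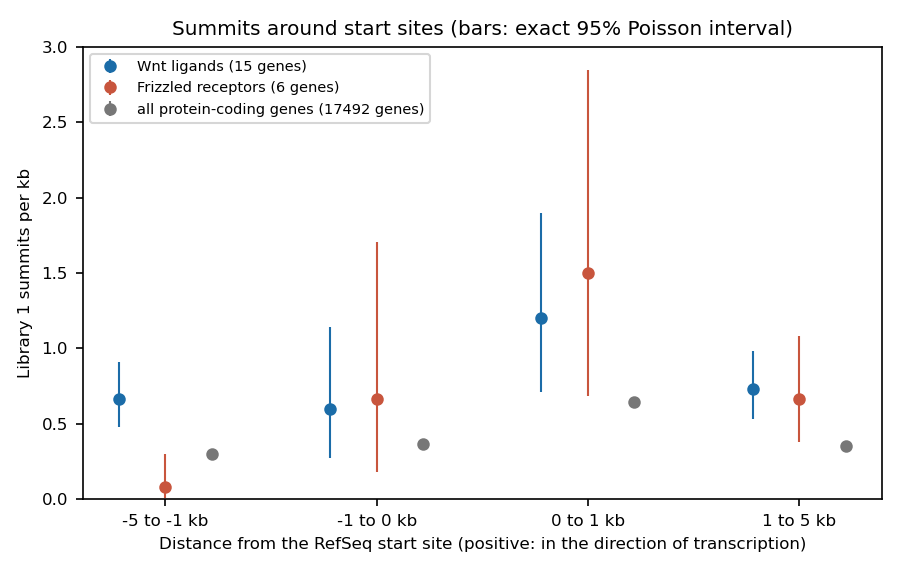
Library 1 summits per kb in 4 distance ranges around the outermost start site in the RefSeq promoter table, for 15 ligands, 6 Frizzleds and 17492 protein-coding genes, with exact 95% Poisson intervals. For Wnt2, Wnt6 and Wnt9b the upstream ranges include gene body, and for Wnt3 they lie in the Wnt9b gene. The range from 1 to 5 kb downstream runs past the gene end in Fzd1, Fzd7, Fzd9, Fzd10 and Wnt1. The first 1 kb downstream is highest in each class, and the Frizzled value from 5 to 1 kb upstream is 0.0833 per kb against 0.667 in ligands.

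A summit within 500 bp of a RefSeq start was found for 13 of 15 ligands and 5 of 6 Frizzleds, against 57.8% of protein-coding genes in the table; Wnt1, Wnt10b and Fzd7 had none. Within 1000 bp all 21 genes had one, against 67.6%. Inside the promoter window itself, from 250 bp before to 50 bp after a start, summits were found in 4 of 18 ligand promoters (Wnt2b, Wnt5b, Wnt11 and Wnt16) and 1 of 6 Frizzled promoters (Fzd4), near the 21.8% of all protein-coding promoters. The nearest summits therefore lay mostly just beyond the window, such as 142 bp downstream for Wnt6, 207 bp for Wnt4 and 162 bp for Fzd10.

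The promoters with the highest summit folds are printed here to show the sequence under the summit, from RefSeq (GRCm38.p6), 5′ to 3′ on the coding strand. Capitals mark the summit base and 10 bases on each side.

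Wnt5b: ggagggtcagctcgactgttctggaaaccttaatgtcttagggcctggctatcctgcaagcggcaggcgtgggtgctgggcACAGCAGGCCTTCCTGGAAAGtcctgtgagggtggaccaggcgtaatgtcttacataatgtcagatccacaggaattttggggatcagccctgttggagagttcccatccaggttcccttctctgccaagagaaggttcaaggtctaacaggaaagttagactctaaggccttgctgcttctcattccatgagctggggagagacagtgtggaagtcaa
Wnt16: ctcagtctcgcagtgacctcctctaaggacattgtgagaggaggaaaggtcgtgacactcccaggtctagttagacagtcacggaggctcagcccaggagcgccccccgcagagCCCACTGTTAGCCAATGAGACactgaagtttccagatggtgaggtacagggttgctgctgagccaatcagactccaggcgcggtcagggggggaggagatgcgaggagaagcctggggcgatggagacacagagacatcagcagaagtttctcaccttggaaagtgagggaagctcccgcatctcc
Wnt11: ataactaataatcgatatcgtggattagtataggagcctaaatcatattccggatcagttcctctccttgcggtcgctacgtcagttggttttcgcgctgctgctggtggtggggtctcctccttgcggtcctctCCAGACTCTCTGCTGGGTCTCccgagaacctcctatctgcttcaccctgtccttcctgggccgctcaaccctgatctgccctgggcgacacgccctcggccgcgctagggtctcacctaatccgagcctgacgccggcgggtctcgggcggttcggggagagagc
Fzd4: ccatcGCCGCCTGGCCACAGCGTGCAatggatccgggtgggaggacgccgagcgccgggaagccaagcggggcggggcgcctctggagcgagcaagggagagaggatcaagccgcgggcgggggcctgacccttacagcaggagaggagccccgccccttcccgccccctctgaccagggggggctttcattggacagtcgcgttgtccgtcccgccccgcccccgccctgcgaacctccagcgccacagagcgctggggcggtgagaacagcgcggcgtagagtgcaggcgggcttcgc

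The Wnt5b window (chr6:119467162-119467461, minus strand) belongs to 1 of 3 listed starts of that gene, and its summit lay 159 bp upstream of the start with a fold of 4.85. The Wnt16 window (chr6:22287977-22288276, plus strand) had its summit 126 bp upstream with a fold of 3.77. The Wnt11 window (chr7:98838595-98838894, plus strand) belongs to the inner of 2 listed starts, with a fold of 2.75 at 105 bp upstream, the same fold as the Wnt2b promoter summit. The Fzd4 window (chr7:89404116-89404415, plus strand) had a fold of 2.69 at 235 bp upstream. All 4 summits lay upstream of the start, which largely follows from the window, as it covers 250 bp before and 50 bp after a start. The last pair was among the weaker peaks of the list.

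For comparison, a ligand and a receptor promoter without a summit are given, with capitals on the motif matches described next.

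Wnt1: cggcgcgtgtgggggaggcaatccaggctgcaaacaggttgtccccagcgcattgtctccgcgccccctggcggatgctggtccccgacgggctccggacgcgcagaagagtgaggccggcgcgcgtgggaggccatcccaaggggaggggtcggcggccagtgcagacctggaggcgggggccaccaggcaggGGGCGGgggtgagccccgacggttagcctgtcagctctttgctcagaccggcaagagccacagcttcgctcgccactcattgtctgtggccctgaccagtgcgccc
Fzd1: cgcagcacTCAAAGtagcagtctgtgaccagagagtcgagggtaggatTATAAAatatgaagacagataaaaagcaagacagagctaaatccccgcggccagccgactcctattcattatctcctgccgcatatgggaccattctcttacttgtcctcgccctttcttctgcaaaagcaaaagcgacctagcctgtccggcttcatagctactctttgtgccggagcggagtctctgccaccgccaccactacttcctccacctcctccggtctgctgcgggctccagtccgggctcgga

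The Wnt1 window is chr15:98789607-98789906 (plus strand) and the Fzd1 window chr5:4758167-4758466 (minus strand). Member promoters were rich in G and C, with a median GC content of 71% in ligands and 74.2% in Frizzleds against 56.3% in all protein-coding promoters. The GC box GGGCGG, searched on both strands, occurred in 14 of 18 ligand and 5 of 6 Frizzled promoters and in 46.2% of all protein-coding promoters. Fzd4 has 8 matches and Wnt1 and Wnt11 have 1 each among the printed windows. The TCF/LEF core CTTTGA, on both strands, was found in 2 ligand promoters, 1 Frizzled promoter (Fzd1) and 14.4% of all, and TATAAA, on both strands, in 1 of each class and 12.6% of all. The 3 motifs do not share matches in the printed windows.

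The share of promoters with a summit moved with base composition. A summit was found in 0.108% of protein-coding promoters under 40% GC, in 5.11% from 40 to 50%, 28.5% from 50 to 60%, 32.2% from 60 to 70% and 25.1% at 70% or more. Of the 24 member promoters, 14 were at 70% GC or more and 2 of these had a summit, and 3 of 5 had one between 50 and 60%. The base composition of the gene bodies was not analysed here, and its part in the summit densities was not tested.

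Other genes of the Wnt pathway showed similar coverage. All 61 genes of a list in 8 roles had a library 1 summit, against 87.4% of protein-coding genes. Many of the 61 are long, and in length deciles 7 to 10 the share of genes with a summit was 96.4% to 99.4%. Of the 61, 48 lay above the median density of their length decile (against 49%). All 10 genes of beta-catenin and its nuclear partners did so, from 0.300 per kb in Bcl9 to 0.995 in Bcl9l, and 10 of 11 of Dishevelled and the destruction complex, from 0.105 in Csnk1a1 to 1.07 in Apc2. Planar cell polarity genes were above it in 6 of 7 cases (Prickle2 0.151, Celsr2 1.14). Other Wnt receptors and co-receptors were above it in 5 of 6 (Ror1 0.162, Ptk7 0.814). Secreted antagonists were above it in 8 of 12 (Dkk2 0.124, Sfrp5 1.11), and receptor turnover genes in 3 of 4 (Znrf3 0.170, Kremen2 1.63). R-spondins and their receptors were above it in 4 of 7 (Rspo2 0.0524, Rspo4 1.12), and genes of ligand maturation and secretion in 2 of 4 (Wls 0.0297, Notum 0.851). Against the neighbouring 500 kb, 42 of the 61 were denser than their surroundings, where 55% of all protein-coding genes were. This held for 11 of 12 secreted antagonists, but for 6 of 10 genes of beta-catenin and its nuclear partners. It held for 5 of 11 of Dishevelled and the destruction complex and for 3 of 6 other Wnt receptors and co-receptors. Differences between roles were not tested.

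Library 2 had no summit in the window of any of the 31 genes or of the 61 other pathway genes, and 0.142% of all protein-coding genes (31 genes) had one. The nearest library 2 peaks lay 775 kb from Wnt11 (fold 20.05, pileup of 40 reads) and 868 kb from Fzd7 (fold 6.69, 41 reads). For the other 29 members the distance was 1983 kb (Lrp6) or more. Every density above is thus a property of library 1 and has no counterpart in library 2.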

How the data were processed

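Peak lists from ChIP-seq of 2 libraries were used as the authors deposited them, 1 list per library. Tools listed in the submitters' processing notes are MACS2 2.1.0, Bowtie 1.1.2, Trimmomatic 0.33 and bcl2fastq 2.17, beside the builds mm10 and hg38, with no roles given; caller settings and a control are not given in the sources used here. Each deposited peak has a score (the −log10 q times 10, without decimals), a fold ratio over background, a −log10 p-value, a −log10 q-value and a summit offset, per the narrowPeak column order. These values are the authors' and served to describe and filter peaks within a list.

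Genes came from RefSeq (GRCm38.p6, chromosomes 1 to 19, X and Y; gene ends without exons) and promoters from the RefSeq promoter table, which held 15 of 19 ligands and 6 of 10 Frizzleds. The members and lists were chosen with earlier results of these data known. All 31 members were named. In each pathway role the genes of highest and lowest density were named, and other genes only as neighbours sharing peaks. Printed promoters were the up to 3 per class with the highest summit fold and the alphabetically first without a summit. Summits were counted in windows of the gene body plus 1 kb. Expected numbers used the pooled density of other genes of the same length decile, with overlapping member windows counted once. Pileups were solved from the fold and p-value within 0.002 on the −log10 scale and recovered for 100% of peaks. The scripts (Python 3.11.15, SciPy 1.17.1) were tested on simulated data.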

Additional observations from a re-analysis of the deposited data

How the results depend on the processing

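Window sizes, any overlap of peak and window, 20 length bins, autosomal deciles and leaving out shared summits moved no pooled density or ratio outside its counting interval, though with 5 kb at either end the Frizzled ratio was 0.784 (0.618 to 0.981). Stricter peak sets did, in part by construction since fewer peaks remain. With −log10 q of at least 5, ligands had 0.256 and Frizzleds 0.109 summits per kb, the Frizzled ratio to the decile value was 0.656 (0.382 to 1.05), and 16 members had a summit within 1 kb of an end (44.4% of all genes). The ligand ratio was then 1.63 (1.39 to 1.91). With the 10% of peaks of highest fold, the densities were 0.0498 and 0.0320 per kb, the ligand ratio was 1.27 (0.865 to 1.81), 6 receptors and 19 members in all had a peak (50% of all genes), and 3 members had one near an end (13.5%). Alternatives chosen after seeing the data were leaving out Fzd3 (Frizzled density 0.665, ratio 1.40), leaving out Wnt5b (ligand ratio 1.71), and the surrounding 500 kb or 100 kb as reference (ligands 1.45 and 1.31, Frizzleds 1.20 and 1.27). Members with a peak in either library ranged from 0, without library 1, to 31. No paired analysis was possible because there is 1 group. The summit pileups of 8 to 28 reads limit the ranking of single peaks, and genes with few summits cannot be ordered by density.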
